A study of Mus musculus with 24 samples.

Results

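Trimethylation of histone H3 at lysine 27 (H3K27me3) was mapped at 3 mouse genes, *Ptprm*, *Tmem196* and *Pdzrn4*, in cultured cerebellar granule neurons (CGNs). The genes were chosen by their large loss of promoter coverage in CGNs treated with GSK-126, so their values in that experiment are given as a description and without a test. They are 3 of the 21938 protein-coding promoters measured, and a promoter was the 6 kb window reaching 3 kb to either side of the annotated 5′ end. The data are 24 CUT&RUN peak lists from 8 groups of 3 replicates. CGNs were grown from granule neuron precursors of CD1-IGS mice aged P6 to P8, both sexes, and each replicate was a culture from pooled cerebella. The time course had 4 harvests, named by the day in vitro (DIV1, DIV3, DIV5 and DIV7). A second set of cultures received 5 µM GSK-126, an inhibitor of the H3K27 methyltransferase EZH2, or DMSO at DIV1 and was harvested at DIV5. Another set received GSK-J4 at 1 µM, which inhibits H3K27 demethylases of the KDM6 family, or its own DMSO on the same days. All cultures harvested after DIV2 had been given 1 µM cytosine arabinoside at DIV2, a drug that stops division of non-neuronal cells.

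H3K27me3 is written by Polycomb repressive complex 2, whose catalytic subunit is EZH2 or EZH1, and removed by the demethylases KDM6A and KDM6B. The mark lies over promoters of silenced developmental genes and is lost or gained at many genes as neurons mature. *Ptprm* encodes a receptor-type tyrosine phosphatase whose extracellular part binds its own kind on neighbouring cells and which associates with cadherins and catenins at cell contacts. *Pdzrn4* encodes a PDZ domain protein with a RING finger, of the LNX family of ubiquitin ligases. *Tmem196* encodes a multi-pass membrane protein whose role in neurons is not established.

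The *Ptprm* gene (ENSMUSG00000033278) spans chromosome 17 from 66666947 to 67354457 (mm10, minus strand, 688 kb, 5′ end at 67354457). *Tmem196* (ENSMUSG00000048004) spans chromosome 12 from 119945822 to 120021246 (plus strand, 75.4 kb) and *Pdzrn4* (ENSMUSG00000036218) spans chromosome 15 from 92396881 to 92771819 (plus strand, 375 kb). No other protein-coding gene lay in any of the 3 windows, and the nearest other protein-coding 5′ end was 278 kb (*Lrrc30*), 632 kb (*Macc1*) and 346 kb (*Cntn1*) away. In the 21 libraries without GSK-126, the mark sat downstream of the 5′ end at *Ptprm*, where 85.7% of the covered bases were in intron 1 and 14.1% in exon 1. At *Pdzrn4*, 13.7% of the covered bases were upstream, 44.7% in exon 1 and 41.6% in intron 1. At *Tmem196*, 21.1% were upstream and 62.7% in exon 1 of the protein-coding transcripts.

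The 300 bases most often under a peak in those 21 libraries, once annotated untranslated bases were left out, are shown for each gene. At *Tmem196* the bases most often covered, 153 to 473 bp downstream (19 of 21 libraries), are untranslated, so its stretch lies beside them. The stretches were read from GRCm38, 5′ to 3′ on the gene's strand, with CG dinucleotides in capitals. The *Ptprm* stretch is chr17:67353517-67353816 (minus strand, intron 1, 641 to 940 bp downstream of the 5′ end). The *Tmem196* stretch is chr12:119945657-119945956 (plus strand, 165 bp upstream to 134 bp downstream), and the *Pdzrn4* stretch is chr15:92397383-92397682 (plus strand, 502 to 801 bp downstream, across the end of exon 1).
Ptprm: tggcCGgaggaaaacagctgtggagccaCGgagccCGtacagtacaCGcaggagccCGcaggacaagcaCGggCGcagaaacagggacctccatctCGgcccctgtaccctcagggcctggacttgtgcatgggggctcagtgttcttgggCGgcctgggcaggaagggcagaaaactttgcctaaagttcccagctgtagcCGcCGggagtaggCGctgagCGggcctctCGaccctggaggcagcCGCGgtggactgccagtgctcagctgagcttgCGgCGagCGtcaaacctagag
Tmem196: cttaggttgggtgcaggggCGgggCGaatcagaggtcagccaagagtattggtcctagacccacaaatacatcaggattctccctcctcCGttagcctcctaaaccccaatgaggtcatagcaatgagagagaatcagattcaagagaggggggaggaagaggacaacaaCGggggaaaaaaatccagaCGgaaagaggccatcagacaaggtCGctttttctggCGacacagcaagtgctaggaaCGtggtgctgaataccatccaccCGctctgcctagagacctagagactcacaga
Pdzrn4: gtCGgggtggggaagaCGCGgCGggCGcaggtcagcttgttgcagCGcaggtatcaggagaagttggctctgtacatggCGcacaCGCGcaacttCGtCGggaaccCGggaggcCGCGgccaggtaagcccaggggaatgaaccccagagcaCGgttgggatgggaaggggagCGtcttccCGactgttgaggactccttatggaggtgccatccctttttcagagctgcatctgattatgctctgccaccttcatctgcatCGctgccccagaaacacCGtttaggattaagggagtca
Each base of the *Ptprm* stretch was under a peak in 16 to 20 of the 21 libraries, each base of the *Tmem196* stretch in 7 to 18, and each base of the *Pdzrn4* stretch in 18 to 20. With GSK-126, no base of the *Tmem196* or *Pdzrn4* stretch was under a peak in any of the 3 libraries, while the bases of the *Ptprm* stretch were under a peak in 1 or 2 of the 3. The *Tmem196* peak of GSK-126 replicate 1, 268 to 449 bp downstream, lay among the untranslated bases left out of the stretch.

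The sequences differed in CG content. The *Ptprm* stretch held 19 CG dinucleotides, and 10.47% of all promoters held as many at the same distances from the 5′ end (median 5). The *Pdzrn4* stretch also held 19, a number that 15.3% of all promoters reached there (median 6). The *Tmem196* stretch held 9, fewer than the median of 14. Over the whole 6 kb, *Ptprm* had 239 CG dinucleotides, a number reached by 3.97% of all promoters. *Pdzrn4* had 128 and *Tmem196* had 61, against a median of 108 over all promoters and of 133 over the promoters with a peak in 20 or more libraries. The 3 promoters thus spanned CG-rich to CG-poor sequence.

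Before the comparisons, a few facts of the lists bear on every value. The lists held 4740 to 22832 peaks and covered 1.07 to 6.57 Mb. No read counts accompany the peaks, so the depth is unknown and no counting interval can be given. GSK-126 lists covered 1.07 to 2.00 Mb, against 3.29 to 4.23 Mb in DMSO. To set lists of equal summed length side by side, each list was also cut to the length of the shortest list of its experiment by keeping the peaks with the highest −log10 p (the peak caller's significance). GSK-126 replicate 3 stood apart: 47.2% of the promoters with a peak in it had none in any other library, against 0.698% to 5.66% in the other 23. Of the defining granule neuron genes *Neurod1*, *Zic1*, *Zic2*, *Pax6* and *Rbfox3*, 0 to 2 of 5 had a promoter peak in a library, and peak lists alone do not measure their expression. Of the astrocyte markers 0 or 1 of 4 had one, of the oligodendrocyte lineage markers 0 to 2 of 4 and of the microglial markers 0 or 1 of 3. In bulk nuclei, fewer cells carrying the mark and less mark in each cell cannot be told apart.

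**Figure D1:**
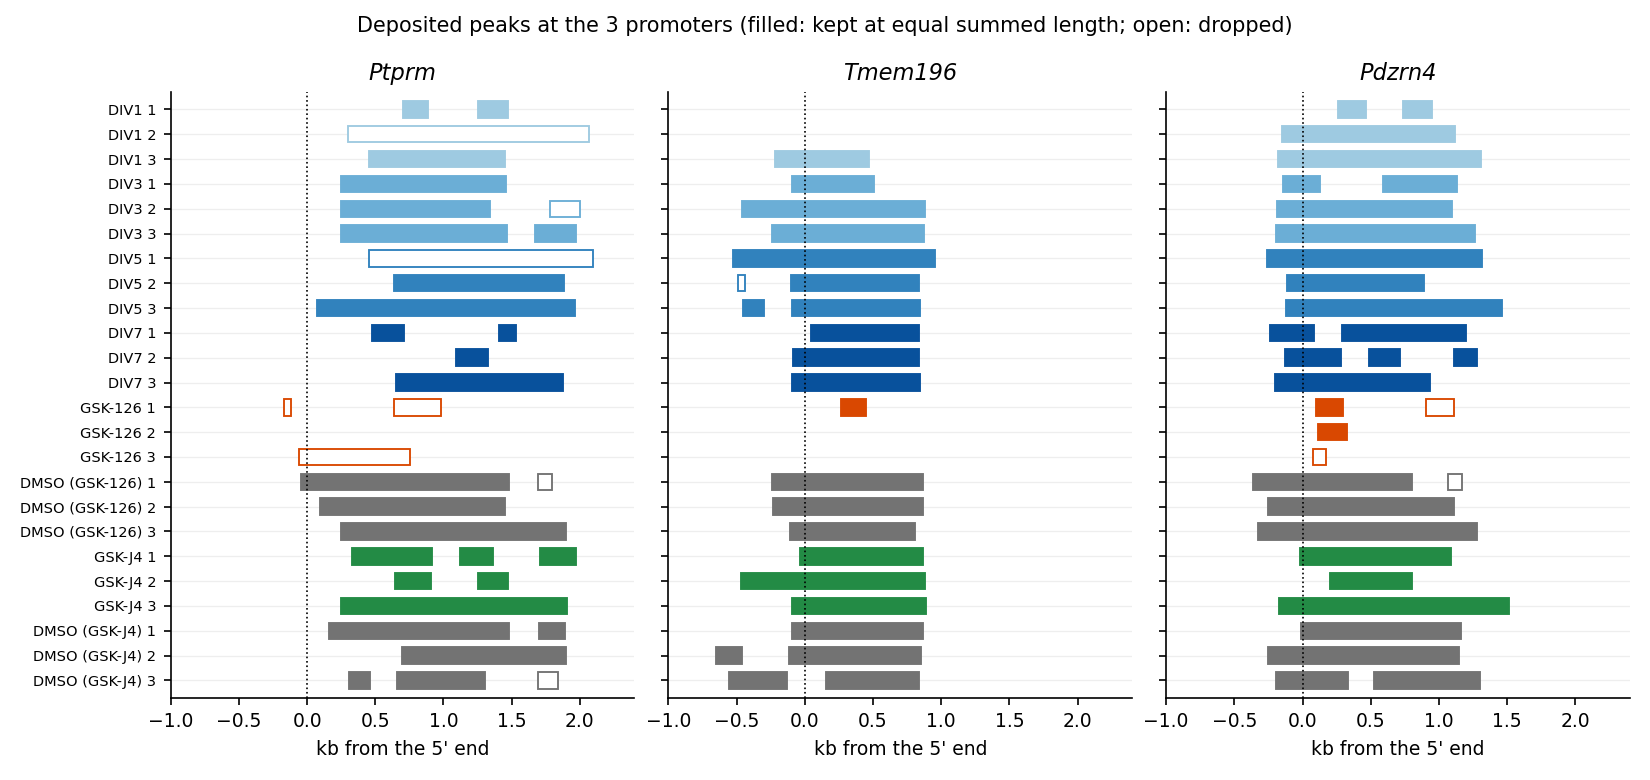
Deposited peaks at the 3 promoters, 1 row a library, placed by distance from the 5′ end in kb (dotted line at 0); filled bars were kept in lists of equal summed length and open bars were dropped. The GSK-126 rows hold bars of 54 to 816 bp or none. Each DMSO row of the same experiment, directly below them, holds a bar of 920 bp or more at each gene.

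With GSK-126, coverage of each of the 3 promoters was lower in every library than in any DMSO library. *Ptprm* had 404, 0 and 816 bp under promoter peaks in the 3 GSK-126 libraries, against 1628, 1357 and 1647 bp in DMSO. *Tmem196* had 182, 0 and 0 bp in GSK-126, against 1110, 1103 and 920 bp in DMSO. *Pdzrn4* had 6.62%, 3.48% and 1.67% of its window under peaks in GSK-126, against 21.2%, 22.8% and 26.7% in DMSO. Of all 2385 promoters covered in at least 3 of the 6 libraries, 46.0% had every GSK-126 library below every DMSO library with all deposited peaks. The 3 genes were selected on this contrast, so their own count is no result.

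Expressed as a share of the window and using all deposited peaks, *Ptprm* averaged 6.78% ± 6.80 in GSK-126 and 25.7% ± 2.703 in DMSO (SD, n = 3 each). *Tmem196* averaged 1.01% ± 1.75 in GSK-126 and 17.4% ± 1.80 in DMSO, and *Pdzrn4* averaged 3.92% ± 2.50 in GSK-126 and 23.6% ± 2.81 in DMSO. GSK-126 means were therefore 26.3%, 5.81% and 16.6% of the DMSO means at *Ptprm*, *Tmem196* and *Pdzrn4*. Over the 1893 promoters with a peak in all 3 DMSO libraries the median share kept was 29.97% (quartiles 7.22% and 60.8%), and 390 of them kept none. *Ptprm* thus sat near the middle, with 46.1% of those promoters keeping less, and *Tmem196* lower, with 23.3% keeping less. The whole GSK-126 lists had on average 42.4% of the length of the DMSO lists, 1.57 against 3.69 Mb, and the part of this difference in the values of the 3 genes was not tested.

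Lists cut to equal length widened the difference at *Ptprm*. There *Ptprm* had 0% in all 3 GSK-126 libraries, against 25.4%, 22.6% and 27.4% in DMSO. *Tmem196* had 3.03%, 0% and 0% in GSK-126, against 18.5%, 18.4% and 15.3% in DMSO. *Pdzrn4* had 3.27%, 3.48% and 0% in GSK-126, against 19.4%, 22.8% and 26.7% in DMSO. The differences at *Ptprm*, *Tmem196* and *Pdzrn4* were −25.2, −16.4 and −20.7 percentage points, and without GSK-126 replicate 3 they were −25.2, −15.9 and −19.6. Among the 939 promoters covered in at least 3 of the 6 cut lists, these were the largest, the 15th largest and the 2nd largest falls, where the median change was −0.51 percentage points. The genes were chosen for a large loss in this experiment, so their ranks in it are a description and no result. Just below *Pdzrn4* stood *Wwtr1* at −20.5 percentage points. Groups did not overlap, with GSK-126 lower, at 14.0% of the 939 promoters, and 4.37% of them (41) passed limma's test as lower at an adjusted p under 0.05, with 23 higher. These counts rested on single libraries: limma called 0 lower without GSK-126 replicate 1, GSK-126 replicate 3 or DMSO replicate 2 (108, 83 and 97 lower at an unadjusted p under 0.05), 16 when either of the other DMSO libraries was left out, and 4 without replicate 2 of GSK-126. With all deposited peaks 26.7% of 2385 promoters passed it, and the falls at *Pdzrn4*, *Ptprm* and *Tmem196* ranked 26th, 32nd and 94th.

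**Figure D2:**
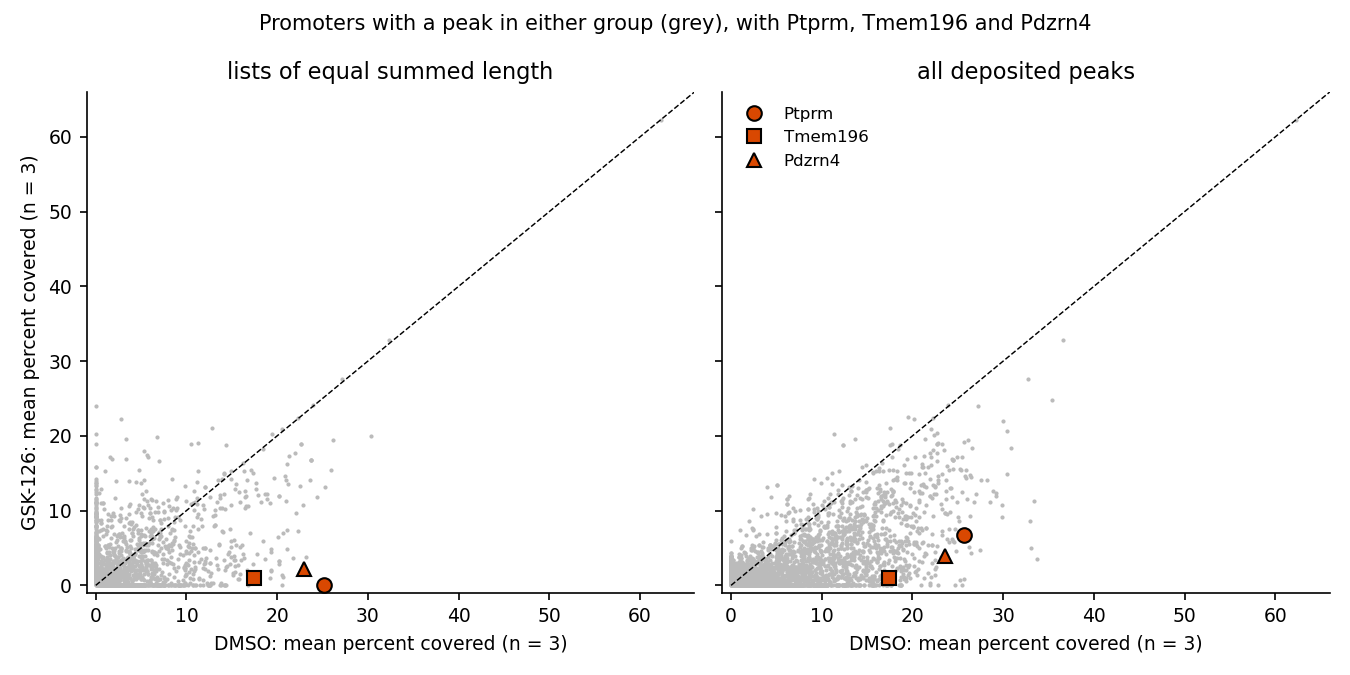
Mean percent of each promoter window under peaks in GSK-126 (vertical) and in DMSO (horizontal), n = 3 libraries each; grey points are the promoters with a peak in either group and the dashed line marks equal values. *Ptprm*, *Tmem196* and *Pdzrn4* lie far below the line in both panels, at −25.2, −16.4 and −20.7 percentage points with lists of equal length (left) and among many other promoters below the line with all deposited peaks (right).

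At *Ptprm*, GSK-126 replicate 2 had no deposited peak, and the zeros of replicates 1 and 3 came from the cut. The *Ptprm* peaks in GSK-126 replicates 1 and 3 reached a −log10 p of 4.92 and 5.10, and the lowest −log10 p kept in those libraries was 5.22 and 5.18. The 3 DMSO peaks reached 5.72, 5.73 and 5.54, 0.32, 0.29 and 0.13 above the lowest value kept. Peaks were thus kept or dropped whole on small differences. When the lists were instead cut by fold enrichment, the difference changed sign at *Ptprm* (6.78 percentage points) and at *Pdzrn4* (2.81 percentage points) and stayed at −16.4 at *Tmem196*. That cut dropped every DMSO peak of *Ptprm* and *Pdzrn4* and kept GSK-126 peaks, so the positive differences rest on DMSO values set to 0%. The loss at *Tmem196* was thus the only 1 of the 3 with the same direction under both ways of cutting.

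**Figure D3:**
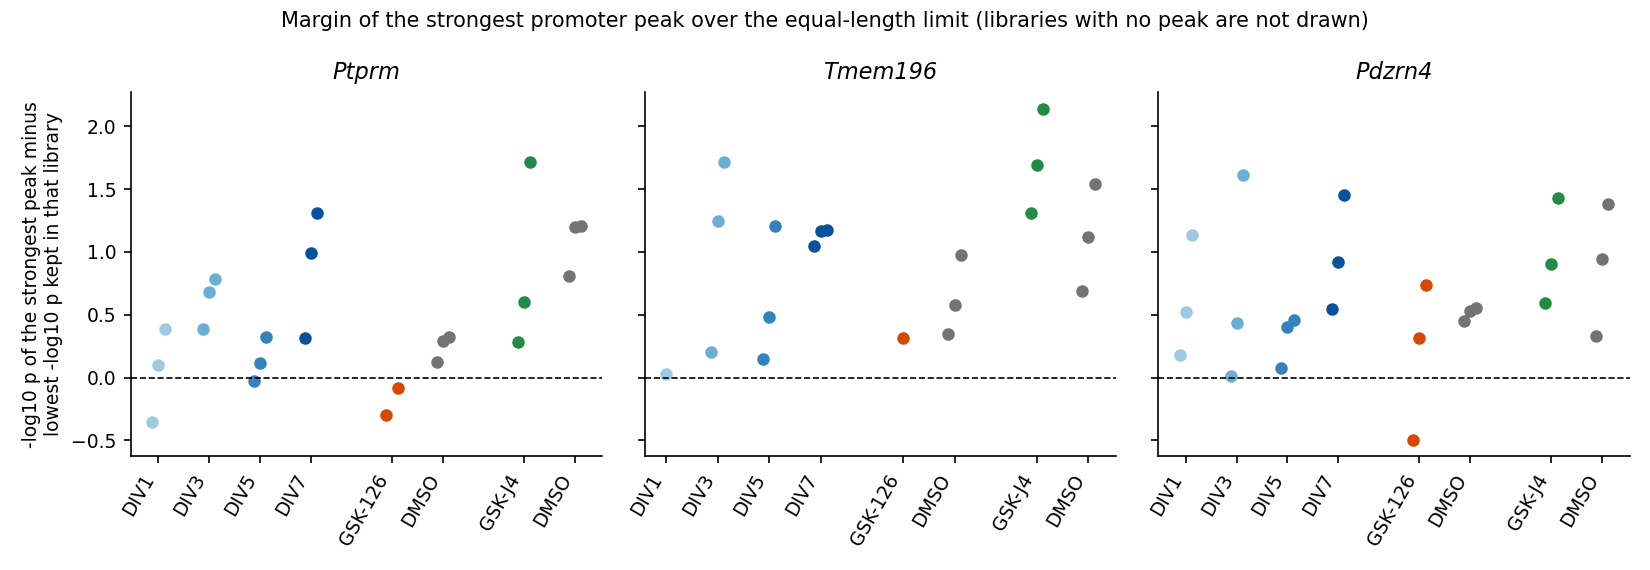
The −log10 p of the strongest promoter peak minus the lowest −log10 p kept in that library, by group; each point is a library with a peak and the dashed line is the limit. *Ptprm* lay below the limit in 4 of its 23 libraries with a peak, among them both GSK-126 libraries, and *Tmem196* in 0 of 20.

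The fold enrichment of the remaining peaks was not lower with GSK-126. The strongest *Ptprm* peak had a fold enrichment of 3.79 and 3.99 in the 2 GSK-126 libraries with a peak, against 3.30, 3.32 and 3.36 in DMSO. At *Pdzrn4* it was 4.20, 4.24 and 3.91 in GSK-126, against 3.56, 3.62 and 3.63 in DMSO. The single *Tmem196* peak in GSK-126 had 4.39, against 4.01, 4.24 and 4.19 in DMSO. The whole lists differed the same way: the mean fold enrichment over all peaks of a library was 3.98, 4.41 and 4.23 in GSK-126, against 3.81, 3.75 and 3.81 in DMSO. Only called peaks have such a value. Among the DIV3 libraries, without a drug, the shortest list (1.11 Mb) had the highest mean, 4.16, and the longest (6.57 Mb) the lowest, 3.64. Whether list length had a part in the GSK-126 values was not tested.

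The place of the peaks that were left differed between the genes. At *Pdzrn4* each GSK-126 library had a peak in exon 1, which ended 294, 324 and 174 bp downstream in replicates 1, 2 and 3, and the 3 peaks overlapped. Replicate 1 had another *Pdzrn4* peak in intron 1, from 908 to 1108 bp downstream. The *Tmem196* peak ran from 268 to 449 bp downstream. At *Ptprm* replicate 1 had a peak of 54 bp upstream and one of 350 bp in intron 1, and replicate 3 had one peak from 62 bp upstream to 753 bp downstream.

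Over days in vitro, the question was whether the 3 promoters gained or lost the mark without a drug. *Tmem196* had no promoter peak in DIV1 replicates 1 and 2 and 11.5% coverage in replicate 3, and it had a peak in all 9 later libraries. Its values were 10.0%, 22.3% and 18.5% at DIV3, then 24.7%, 15.7% and 18.2% at DIV5, and 13.2%, 15.4% and 15.7% at DIV7 in lists of equal length. All DIV7 values lay above all DIV1 values, as at 9.58% of the 1795 promoters tested. DIV1 replicate 2, which had no *Tmem196* peak, had the longest of the 3 DIV1 lists (5.19 Mb).

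The difference at *Tmem196* did not pass the test. In limma's fit over all 1795 promoters, all 3 genes included, it averaged 10.96 percentage points higher at DIV7 than at DIV1 (SE 3.93, 95% confidence interval 2.19 to 19.7, adjusted p = 0.258), and the slope was 1.77 percentage points per day (SE 0.621, adjusted p = 0.226). From DIV1 to DIV3 the step was 13.1 percentage points (SE 3.93, adjusted p = 0.428). None of the 3 promoters was among the 1.00% of promoters called between DIV7 and DIV1 or the 1.17% called by slope. Those shares moved with single libraries. Between DIV7 and DIV1, limma called 8 promoters higher and 10 lower with all libraries, 6 and 27 without DIV1 replicate 1, 2 and 3 without DIV7 replicate 3, and 0 and 0 without DIV7 replicate 1 (90 and 82 at an unadjusted p under 0.05). By slope it called 10 higher and 11 lower with all libraries, 8 and 26 without DIV1 replicate 1, 15 and 17 without DIV3 replicate 3, 8 and 5 without DIV7 replicate 2, and 3 and 4 without DIV7 replicate 1 or 3.

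*Ptprm* was covered at every day but with a wide spread. In all deposited peaks it had 6.70%, 29.4% and 16.7% at DIV1, then 20.1%, 21.9% and 25.4% at DIV3, then 27.4%, 20.9% and 31.5% at DIV5, and 6.10%, 3.92% and 20.4% at DIV7. At DIV7 2 of the 3 libraries thus held short peaks of 235 to 366 bp in sum, less than the 404 and 816 bp of the GSK-126 libraries with a peak. The DIV7 lists were also the shortest, 1.56 Mb on average against 3.53, 3.69 and 3.26 Mb at DIV1, DIV3 and DIV5. DIV7 replicates 1 and 2, the libraries with the short peaks, had 1.25 and 1.19 Mb. Cutting the lists set DIV1 replicate 2 and DIV5 replicate 1 to 0%. The DIV7 minus DIV1 difference was 2.33 percentage points with lists of equal length (SE 7.59, 95% confidence interval −14.6 to 19.2, limma adjusted p = 0.931). It was −7.48 with all deposited peaks, where the median change over 3585 promoters was −3.07, so the direction at *Ptprm* was not settled.

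*Pdzrn4* had a peak in all 24 libraries, as 285 promoters (1.30%) did. It had 6.92%, 21.2% and 24.8% at DIV1, 13.7%, 21.4% and 24.2% at DIV3, 26.3%, 16.7% and 26.4% at DIV5, and 20.6%, 13.5% and 18.9% at DIV7. All 4 days overlapped. The DIV7 minus DIV1 difference was 0.05 percentage points (SE 4.79, 95% confidence interval −10.6 to 10.7, limma adjusted p = 1), and it was −6.76 percentage points when replicate 1 of every day was left out.

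**Figure D4:**
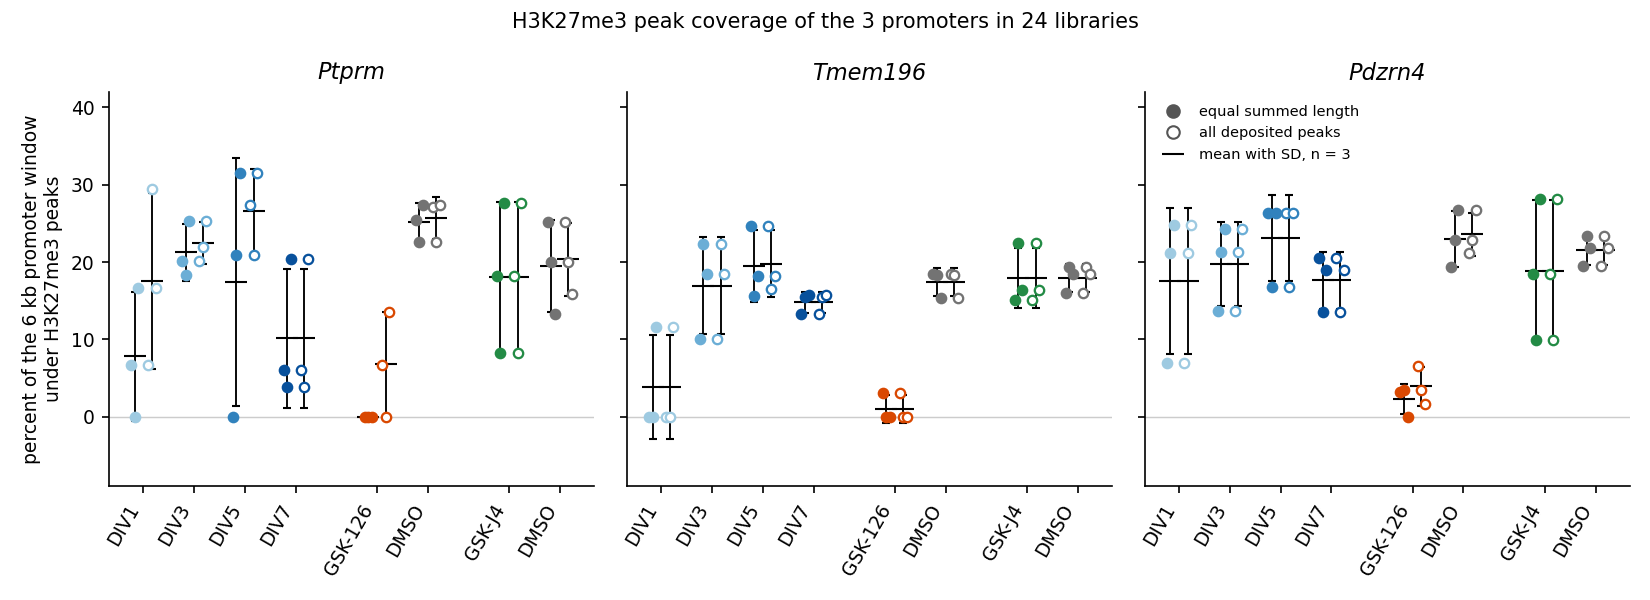
Percent of the 6 kb promoter window under H3K27me3 peaks in every library (points), by group, in lists of equal summed length (filled) and with all deposited peaks (open); bars give the mean and SD (n = 3). GSK-126 values lie at 0% to 3.48% with lists of equal length, below all DMSO values, and the GSK-J4 and DMSO values overlap.

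With GSK-J4 at 1 µM, the 3 promoters had a peak in all 3 libraries, as in the 3 DMSO libraries. The peak lists do not show how far the demethylases were inhibited at this dose. *Ptprm* had 18.3%, 8.28% and 27.6% in GSK-J4, against 25.2%, 20.1% and 13.3% in DMSO (lists of equal length). *Tmem196* had 15.1%, 22.4% and 16.3% in GSK-J4, against 15.96%, 19.4% and 18.5% in DMSO. *Pdzrn4* had 18.5%, 9.97% and 28.2% in GSK-J4, against 19.6%, 23.4% and 21.8% in DMSO. The groups overlapped at every gene.

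The differences were −1.48 percentage points at *Ptprm* (SE 4.99, 95% confidence interval −12.9 to 9.94), 0.01 at *Tmem196* (SE 2.71, −6.18 to 6.19) and −2.72 at *Pdzrn4* (SE 4.27, −12.5 to 7.05). Their limma adjusted p were 0.984, 0.998 and 0.975. The test called 0% of the 1524 promoters tested (0 higher and 0 lower), and at an unadjusted p under 0.05 it gave 40 lower and 33 higher promoters. The intervals leave room for a change of several percentage points in either direction. GSK-J4 replicate 2 had the lowest *Ptprm* and *Pdzrn4* values and the highest *Tmem196* value, and without it all 3 differences changed sign (3.40, −2.23 and 1.74 percentage points).

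The 3 groups harvested at DIV5 without an inhibitor are set side by side here. They come from separate experiments, so vehicle and culture set cannot be told apart between them. With all lists cut to the length of the shortest of the 24, *Tmem196* averaged 19.5% ± 4.68 at DIV5, 17.4% ± 1.80 in the DMSO of the GSK-126 experiment and 14.5% ± 2.65 in the DMSO of the GSK-J4 experiment (SD, n = 3 each). *Pdzrn4* averaged 23.1% ± 5.56, 22.97% ± 3.64 and 18.6% ± 5.27 in the same order. *Ptprm* averaged 17.5% ± 16.05, 25.2% ± 2.43 and 19.5% ± 5.95. The lowest single value of the 9 libraries was 11.5% at *Tmem196*, 12.98% at *Pdzrn4* and 0% at *Ptprm*.

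Outside the promoter window the 3 gene bodies differed. *Tmem196* had no peak in its 72.4 kb body in any of the 24 libraries. *Ptprm* had body peaks in 21 libraries, spread over 77 separate places of which 52 were marked in a single library, and *Pdzrn4* had body peaks in 21 libraries at 31 places, 21 of them in a single library. The bodies were thinly marked, and few places recurred.

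The recurrent places lay far from the 5′ ends. At *Ptprm*, places 593 and 660 kb downstream (chr17:66761249-66761872 and chr17:66693444-66694331) were marked in 13 libraries each and overlapped annotated exons. At *Pdzrn4*, an intronic place 216 kb downstream (chr15:92613265-92613733) was marked in 11 libraries and an intronic place 47.9 kb downstream (chr15:92444826-92445543) in 8. A *Pdzrn4* place at chr15:92597109-92597504, which holds the start of a shorter transcript at 92597126, was marked in 3 libraries, 2 of them at DIV7.

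With GSK-126 the *Ptprm* body held 3, 1 and 0 peaks (313, 49 and 0 bp), against 10, 13 and 15 peaks (1928, 2494 and 2818 bp) in DMSO. These values use all deposited peaks, from lists of 1.57 Mb in GSK-126 and 3.69 Mb in DMSO on average. The share of gene bodies that differ in this way was not computed. The *Pdzrn4* body held 167, 356 and 0 bp in GSK-126, against 135, 1607 and 757 bp in DMSO, and there the groups overlapped. In lists of equal length the *Ptprm* body had 213, 49 and 0 bp in GSK-126, against 98, 252 and 255 bp in DMSO, so the *Ptprm* groups overlapped too.

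Over days in vitro the *Pdzrn4* body had more covered bases at the later days. In lists of equal length it had 0 bp in all 3 DIV1 libraries, 135, 111 and 0 bp at DIV3, 1263, 316 and 137 bp at DIV5 and 1250, 524 and 618 bp at DIV7. With all deposited peaks it had 0, 0 and 148 bp at DIV1, 135, 1062 and 935 bp at DIV3, 1924, 1130 and 1022 bp at DIV5 and 1250, 524 and 1354 bp at DIV7, so DIV3 and DIV7 overlapped and DIV5 had the highest mean. In lists of equal length the slope was 144 bp per day (exact permutation test over the 369600 arrangements of the days, two-sided p = 0.00633), and it kept its direction without any 1 library (114.4 to 161.8 bp per day). It was the 3rd steepest rise of 1179 gene bodies covered in at least 3 of the 12 libraries. This rank is by bases per day and was not scaled to body length, which is 372 kb at *Pdzrn4*. Of those bodies 5.43% rose at an exact p under 0.05, and after Benjamini-Hochberg adjustment over the 1179 the *Pdzrn4* value was 0.182, so it did not pass.

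The *Ptprm* body gave no slope beyond its spread (−24.4 bp per day, exact permutation p = 0.405, adjusted over the 1179 bodies 0.750). With all deposited peaks it had 216, 304 and 659 bp at DIV1, 179, 971 and 2965 bp at DIV3, 2365, 2193 and 2726 bp at DIV5 and 0, 0 and 1054 bp at DIV7. The highest value was that of DIV3 replicate 3, and the highest mean that of DIV5. In lists of equal length it had 0 bp in all 3 DIV7 libraries. For GSK-J4, 3 against 3 libraries allow no exact p under 0.1: the *Ptprm* body averaged 633 bp ± 639 in GSK-J4 and 724 bp ± 261 in DMSO (exact permutation p = 0.9), and the *Pdzrn4* body averaged 486 bp ± 439 in GSK-J4 and 335 bp ± 343 in DMSO (exact permutation p = 0.8). The 2 GSK-J4 values of p are not adjusted.

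**Figure D5:**
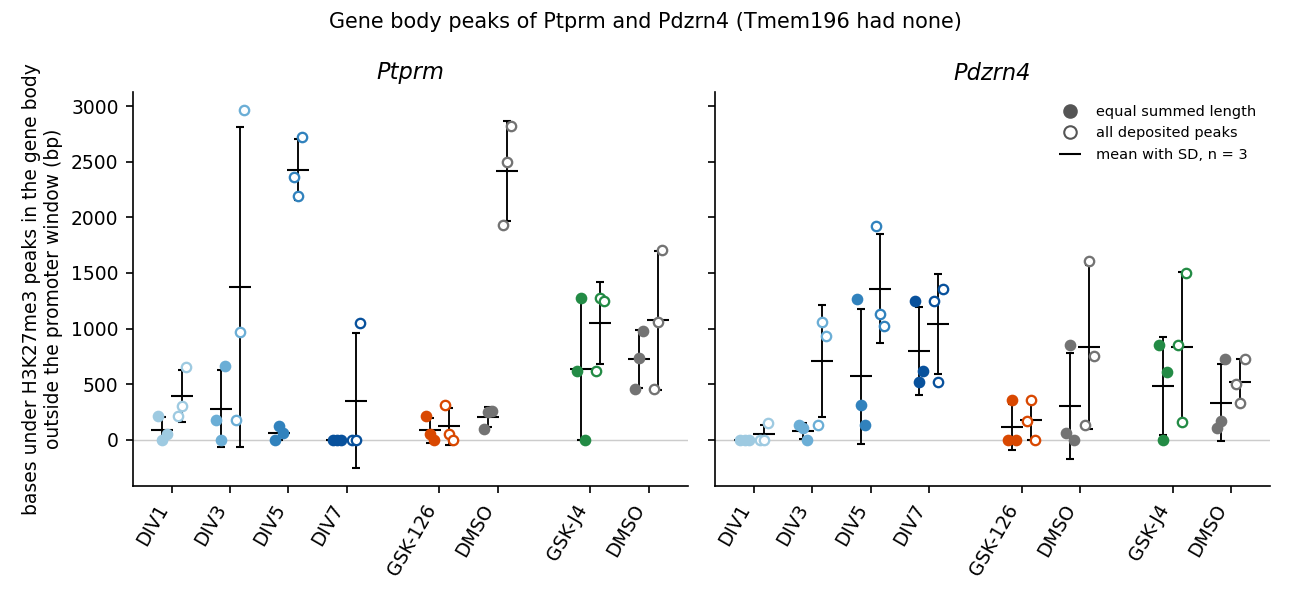
Bases under peaks in the gene bodies of *Ptprm* and *Pdzrn4* outside the promoter window, in every library (points), by group, in lists of equal summed length (filled) and with all deposited peaks (open); bars give the mean and SD (n = 3). The *Pdzrn4* points of equal length lie at 0 bp at DIV1 and at 524 to 1250 bp at DIV7. The open *Ptprm* points lie at 0 to 313 bp in GSK-126 and at 1928 to 2818 bp in DMSO, whose lists are longer. With lists of equal length the *Ptprm* points of these groups overlap.

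Of 19 other receptor tyrosine phosphatase genes, 11 had a promoter peak in any library and 2 in 20 or more, where 38.0% of all promoters had one in any library and 4.49% in 20 or more. These 2, *Ptpru* (21 libraries) and *Ptprt* (20 libraries), encode the closest relatives of *Ptprm* together with *Ptprk*, which had a peak in 1 library. *Ptpru* and *Ptprt* had a peak in all 3 GSK-126 and all 3 DMSO libraries: *Ptpru* averaged 10.6% in GSK-126 and 14.4% in DMSO, and *Ptprt* averaged 8.59% in GSK-126 and 6.09% in DMSO with all deposited peaks. In lists of equal length the GSK-126 minus DMSO difference was 6.93 percentage points at *Ptpru*, opposite in sign, and 3.50 at *Ptprt*. *Ptpre*, a phosphatase of another subgroup, had a peak in 0 of 3 GSK-126 libraries and 3 of 3 DMSO libraries, and *Ptpro* in 2 of 3 and 2 of 3. These counts use all deposited peaks, where 46.0% of 2385 promoters had every GSK-126 library below every DMSO library. None of the 3 list genes tested over days or with GSK-J4 in limma's fit (*Ptpre*, *Ptpru* and *Ptprt*) passed, with an adjusted p of at least 0.181.

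In the LNX family, *Pdzrn3*, the paralogue of *Pdzrn4*, had a promoter peak in 19 libraries. It averaged 0.805% in GSK-126 and 11.3% in DMSO with all deposited peaks, while *Lnx1* and *Lnx2* had no promoter peak in any library. Of the 5 cadherin and catenin genes whose products associate with the *Ptprm* protein, 3 had a promoter peak in any library: *Cdh1*, the E-cadherin gene, in 12, *Ctnnb1* in 3 and *Cdh4* in 2. *Cdh1* averaged 7.45% in GSK-126 and 7.82% in DMSO, and *Cdh2*, the N-cadherin gene, had no peak in any library.

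The promoters whose coverage most resembled that of each gene across the 24 libraries were found by Pearson correlation, as a description over 1489 promoters, with lists cut to a common length. For *Ptprm* they were *Vcan* (r = 0.78), *Prok2* (0.72) and *Zcchc24* (0.70), against a median r of 0.04. For *Tmem196* they were *Slc1a5* (0.76), *Arhgap31* (0.70) and *Rfx6* (0.69), and for *Pdzrn4* they were *Rfx6* (0.71), *Tgfbr2* (0.66) and *Fam20a* (0.65). Between the 3 genes r was 0.52 for *Ptprm* and *Tmem196*, 0.48 for *Ptprm* and *Pdzrn4* and 0.53 for *Tmem196* and *Pdzrn4*. The 24 points share the libraries and the 3 GSK-126 libraries in which the genes were chosen for a low value, and r includes that difference.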

How the data were processed

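H3K27me3 was profiled by CUT&RUN in 24 cultures of mouse CGNs, and each sample was deposited as a list of broad peaks. According to the labels and the methods, the authors trimmed the reads (Trimmomatic 0.38), aligned them (STAR 2.7.2b) to mm10 and called broad peaks with MACS2 2.1 at an FDR of 0.1; any control used for calling is not given in the sources used here. The deposited lists give each peak's fold enrichment, a ratio over the local background, and its −log10 p and −log10 q; the deposited score column was not used. Peaks were called per library, and reads were not used here.

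Coverage was the percent of a promoter window (3 kb to either side of the GENCODE M21 5′ end) under peaks, computed in Python 3.11.15. The main lists were cut to the shortest summed length of each experiment, keeping the highest −log10 p: 1.11 Mb (time course), 1.07 Mb (GSK-126) and 1.40 Mb (GSK-J4). Differences over days and with GSK-J4 were tested with limma 3.58.1 (R 4.3.3) across promoters covered in at least 3 libraries of the experiment, with Benjamini-Hochberg adjustment over all of them. GSK-126 was fitted only for the share of promoters called. Gene bodies were tested by exact permutation. The code was tested on simulated data. Alternatives were all peaks, peaks reaching a −log10 q of 2, lists cut by fold enrichment, a 1 kb window, the common length of all 24 libraries, no filter, the replicate number as a block and leaving out each library.

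The genes, gene lists and tests were chosen with earlier results of these data known. Named besides the 3 genes were, for each, the 3 promoters with the highest correlation over 24 libraries and, from each list of relatives, up to 4 genes with a promoter peak in the most libraries; *Lnx1*, *Lnx2*, *Ptprk* and *Cdh2* were named as relatives without this rule, and *Wwtr1* and the nearest genes for their position. Gene IDs and sequences came from GENCODE M21 and GRCm38, the same coordinates as mm10.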

Additional observations from a re-analysis of the deposited data

How the results depend on the processing

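Of the values given, the GSK-126 losses kept their direction when any 1 library was left out (−26.4 to −24.0 percentage points at *Ptprm*, −17.4 to −15.8 at *Tmem196*, −22.5 to −18.9 at *Pdzrn4*; without replicate 3, which stood apart, they lie in these ranges). The common length of 24 libraries (1.07 Mb) is that of the GSK-126 experiment itself, so this alternative could not differ there. With all deposited peaks the *Ptprm* difference was −19.0, and with a 1 kb window the differences were −44.9, −49.2 and −55.7 (*Ptprm*, *Tmem196*, *Pdzrn4*). With a −log10 q of at least 2 they were 0, −6.13 and 0, since the cut lists then held no *Ptprm* or *Pdzrn4* peak in either group. Ranking by fold enrichment gave 6.78 at *Ptprm* and 2.81 at *Pdzrn4*, opposite in sign, since that cut dropped every DMSO peak of these genes.

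No alternative brought a time course or GSK-J4 result for the 3 promoters past the limma threshold, and *Tmem196* stayed higher at the later days in all 20 alternatives for either measure. Several of these could not change the estimate. Leaving out a DIV3 or DIV5 library does not enter the DIV7 minus DIV1 difference, and the block and no filter alter neither estimate. For *Ptprm* the DIV7 minus DIV1 difference was −7.48 with all deposited peaks and −2.45 with the 1 kb window, and its slope was −0.91, −1.17 and, ranked by fold enrichment, −0.17 percentage points per day. For *Pdzrn4* ranking by fold enrichment gave −3.05 and a slope of −0.69, and replicates 2 and 3 of every day alone, an alternative added after seeing the data, gave −6.76 and −1.08. Leaving out 1 library gave −2.79 to 6.78 and slopes of −0.61 to 0.83 for *Ptprm*, and −5.30 to 3.62 and −0.63 to 0.71 for *Pdzrn4*. The sign of *Ptprm* turned without DIV1 replicate 2 or DIV7 replicate 3 (the slope also without DIV5 replicate 3), and that of *Pdzrn4* without DIV1 replicate 1 or DIV7 replicate 1 (the difference also without DIV7 replicate 3). For GSK-J4 leaving out 1 library gave −6.27 to 3.40 (*Ptprm*), −2.23 to 1.43 (*Tmem196*) and −7.38 to 1.74 (*Pdzrn4*). Outside these ranges lay *Pdzrn4* ranked by fold enrichment (−12.1, limma adjusted p = 0.994) and within the 1 kb window (−8.00, adjusted p = 0.988), and *Tmem196* with a −log10 q of at least 2 (12.6, adjusted p = 0.727) and with the common length of 24 libraries (3.44, adjusted p = 0.968). That length gave 0.23 for *Pdzrn4*. The causes were not tested. The *Ptprm* body slope was 46.6 bp per day with all deposited peaks, and leaving out 1 library gave GSK-J4 body differences of −413 to 226 bp (*Ptprm*) and −32.3 to 394 bp (*Pdzrn4*).

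Same-numbered replicates deviated together only weakly, so the numbers were not taken as pairs. The correlation of deviations was −0.07 to 0.16 in the time course, against −0.13 to 0.07 between replicates of different number. In the GSK-126 experiment it was −0.06 to 0.09, against −0.10 to 0.06. It was 0.03 in each GSK-J4 pair, above every pair of different number there (−0.04 to 0.003). With the replicate number as a block the *Tmem196* DIV7 minus DIV1 difference of 10.96 had a limma adjusted p of 0.303, its slope 0.270 and its GSK-J4 difference 0.998, and the block changed no call for the 3 promoters. Across promoters it gave 7 higher and 9 lower in place of 10 and 11 by slope, and 0 and 0 in place of 23 and 41 with GSK-126 (71 and 93 at an unadjusted p under 0.05). Since depth is unknown, a promoter without a peak may still carry the mark below the calling threshold.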
